A study of Homo sapiens with 24 samples.

Results

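The genes described here encode 10 proteins that place, remove or read the m6A mark on RNA. They are METTL3, METTL14, WTAP, ZC3H13 and RBM15 (writers), FTO and ALKBH5 (erasers), and YTHDF1, YTHDF2 and YTHDC1 (readers). They were chosen by symbol, and all 10 were found among the 23354 genes of the count table. RNA was sequenced in bulk from MV4-11 and KG-1a cells, both established human acute myeloid leukemia lines. MV4-11 carries a KMT2A fusion and an internal tandem duplication of FLT3, and KG-1a is an immature line that expresses CD34. Cells of each line were left untreated or were given 1 μM 8-chloro-adenosine (8CA) or 1 μM 8-amino-adenosine (8AA), for 8 h or 24 h. The compounds are adenosine analogs that carry a chlorine or an amino group at the same position of the purine ring. This gave 12 groups of 2 libraries, lettered A and B, and 24 libraries in all. The controls are named only as untreated, so a vehicle effect was not tested, and the untreated group of a line and time served both drugs.

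N6-methyladenosine, m6A, is the most abundant internal modification of messenger RNA. METTL3 is the catalytic subunit of the nuclear writer complex and METTL14 its RNA-binding partner, while WTAP, ZC3H13 and RBM15 hold the complex in place and bring it to its RNAs. FTO and ALKBH5 are dioxygenases that take the methyl group off, YTHDC1 binds the mark in the nucleus, and YTHDF1 and YTHDF2 bind it in the cytoplasm, where YTHDF2 is known for RNA decay. In myeloid leukemia METTL3, METTL14, FTO, ALKBH5 and YTHDF2 have each been studied as genes that leukemic cells depend on.

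Libraries held from 18633963 to 24520078 counts in all, and the members had 659 (METTL14) to 4837 (YTHDC1) counts in a library. FLT3 lay between 426.2 and 621.5 CPM (counts scaled to library size) in MV4-11 and at or below 1.32 in KG-1a. CD34 lay between 325.4 and 628.9 CPM in KG-1a and at or below 0.175 in MV4-11. MEIS1 lay between 85.2 and 104.2 CPM in MV4-11 and at 0 in KG-1a. HOXA9 went the other way, at 7.11 to 9.40 CPM in MV4-11 and 22.3 to 27.8 in KG-1a. HOXA10 did not separate the lines (60.8 to 73.8 and 61.3 to 92.7 CPM). Of the blood cell genes, PTPRC was lower in MV4-11 (80.9 to 152.4 CPM against 688.1 to 787.6). SPI1 (218.6 to 280.4 against 5.86 to 7.81) and CD33 (104.7 to 140.8 against at most 1.02) were higher there. EPCAM, KRT19, COL1A2 and DCN, markers of epithelium and fibroblasts, had 0 counts in every library, and COL1A1 reached 0.256 CPM at most. Within groups, the counts of libraries A and B differed most in the KG-1a 8AA 24 h pair, where chi-square per degree of freedom was 12.3, against 1.43 to 5.20 in the other 11 pairs. Nothing in the labels says that A and B came from separate cultures, so p-values measure the spread between these libraries, which may be technical. That spread was estimated over all groups of a fit together. The larger difference between the KG-1a 8AA 24 h libraries therefore enters the p-values of their own comparisons only in part.

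In untreated cells the largest difference between the lines among the members was in the eraser ALKBH5 and the reader YTHDF1, in opposite directions. A level per length is given as RPKM, which is CPM divided by the exon length in kilobases, after trimmed mean of M values (TMM) scaling. ALKBH5 was at 43.5 ± 2.04 RPKM in MV4-11 and 21.5 ± 1.68 in KG-1a (mean ± SD, n = 4, 8 h and 24 h together), 2.03-fold higher in MV4-11 (log2 fold change 1.02, SE 0.038, adjusted p = 5.35e-18 in the quasi-likelihood test of edgeR, Benjamini-Hochberg adjusted). YTHDF1 was at 27.9 ± 1.3 RPKM in MV4-11 and 46.8 ± 1.67 in KG-1a (log2 fold change −0.74, SE 0.036, adjusted p = 1.07e-15). The 4 untreated libraries of one line did not overlap those of the other for either gene. Throughout, adjusted p is from that test and over all genes tested, and a gene is called, and said to have risen or fallen, when it is below 0.05. Between the untreated lines 7 of 10 members were called, 3 higher and 4 lower in MV4-11, where 87.4% of all 14055 genes tested were called. In bulk RNA, a difference in the kinds of cells present and a difference in RNA per cell cannot be told apart.

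ALKBH5, YTHDF2 and METTL3 stood highest per length in MV4-11, at 43.5 ± 2.04, 38.7 ± 1.47 and 30.8 ± 0.534 RPKM (mean ± SD, n = 4). In KG-1a the order began with YTHDF1, YTHDF2 and METTL3, at 46.8 ± 1.67, 33.2 ± 1.76 and 31.8 ± 1.69 RPKM. FTO was lowest in both lines, at 12.4 ± 0.468 RPKM in MV4-11 and 13.5 ± 0.484 in KG-1a. The catalytic subunit METTL3 had a higher level per length than its partner METTL14, at 17.02 ± 0.64 RPKM in MV4-11 and 17.95 ± 0.716 in KG-1a, with no overlap of libraries in either line. The other members lay in between, from RBM15 at 16.4 ± 1.19 to YTHDF1 at 27.9 ± 1.3 RPKM in MV4-11 and from RBM15 at 15.3 ± 0.745 to YTHDC1 at 23.1 ± 0.8 RPKM in KG-1a. Among neighbours in the order, the library ranges of METTL14 and RBM15 overlapped in MV4-11. In KG-1a those of YTHDF2 and METTL3, YTHDC1 and WTAP, WTAP and ALKBH5, METTL14 and ZC3H13, and RBM15 and FTO overlapped. METTL3 (−0.043) and METTL14 (−0.077) were not called between the lines, with log2 differences given as MV4-11 over KG-1a, and neither was RBM15 (0.10, adjusted p = 0.0516). ZC3H13 (0.32) and YTHDF2 (0.22) were higher in MV4-11, and YTHDC1 (−0.27), WTAP (−0.13) and FTO (−0.12) were lower. Scaling by total counts only moved the median of all genes between the untreated lines to −0.10, near the size of the WTAP, FTO and RBM15 values. The call of FTO was lost without MV4-11 untreated 24 h B (adjusted p = 0.0538) or KG-1a untreated 24 h A (0.0588), and the calls of FTO and WTAP were lost with upper-quartile scaling or with no filter on low counts.

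**Figure D1:**
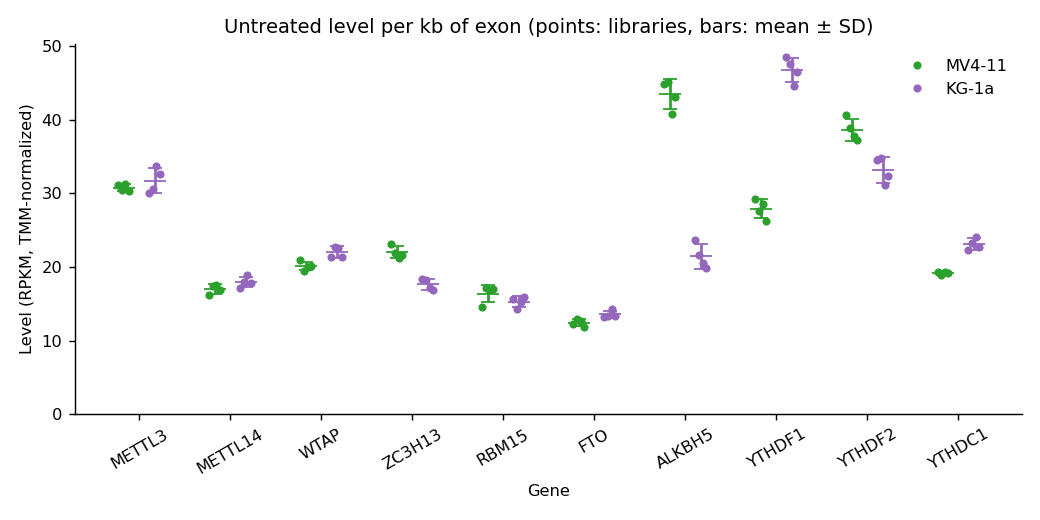
Level of each of the 10 genes in untreated cells, in RPKM on the y axis (TMM-normalized CPM per kilobase of exon), for MV4-11 (green) and KG-1a (purple). Points are the 4 untreated libraries of a line and bars are the mean ± SD; ALKBH5 stands near 43.5 RPKM in MV4-11 and 21.5 in KG-1a, and YTHDF1 shows the opposite order.

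The positions in the count table are of the hg19 assembly. The table gives METTL3 at chr14:21966282-21979457 on the minus strand, METTL14 at chr4:119606574-119632077 on the plus strand, YTHDC1 at chr4:69176105-69215824 on the minus strand, ALKBH5 at chr17:18086867-18113267 on the plus strand and YTHDF1 at chr20:61826782-61847538 on the minus strand. The exon lengths used for RPKM ran from 2.096 kb (METTL14) to 8.476 kb (ZC3H13). METTL3 shares 1038 bases with TOX4 on the opposite strand, and the sources used here do not say whether strand was used in counting, so reads there cannot be assigned to METTL3 or TOX4 with certainty. RBM15 and YTHDF2 lie whole within the listed spans of LOC100132062 and LOC100133331, which run from base 323892 to 180755196 and from 322037 to 180753553 of chromosome 1 with 8.73 and 11.2 kb of exons, and whether any exon is shared was not tested. RefSeq lists pseudogenes named for FTO (FTOP1), WTAP (WTAPP1 and WTAPP2), YTHDF1 (YTHDF1P1) and YTHDF2 (YTHDF2P1), and reads shared with them were not tested.

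METTL14 and YTHDC1 were the members called higher most often with drug, and YTHDF1 and ALKBH5 those called lower most often, so the DNA upstream of these 4 genes is shown. Each line holds the 250 bases before the RefSeq start, from RefSeq on GRCh38.p14 (not the assembly of the count table), written 5′ to 3′ on the strand of the gene. Capitals mark matches, on either strand, to 6 short motifs: the GC box GGGCGG, the CCAAT box CCAAT, the E-box CACGTG, the ETS core CCGGAAG, the cyclic AMP response element TGACGTCA and the TATA box TATAAA. The stretches lie at chr4:118685142-118685391 (METTL14, plus strand), chr4:68350091-68350340 (YTHDC1, minus), chr17:18183578-18183827 (ALKBH5, plus) and chr20:63216132-63216381 (YTHDF1, minus).
METTL14: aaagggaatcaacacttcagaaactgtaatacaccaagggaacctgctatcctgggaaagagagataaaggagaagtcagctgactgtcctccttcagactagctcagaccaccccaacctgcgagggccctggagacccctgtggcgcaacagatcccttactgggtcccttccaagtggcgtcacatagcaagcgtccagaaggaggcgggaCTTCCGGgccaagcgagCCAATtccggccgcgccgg
YTHDC1: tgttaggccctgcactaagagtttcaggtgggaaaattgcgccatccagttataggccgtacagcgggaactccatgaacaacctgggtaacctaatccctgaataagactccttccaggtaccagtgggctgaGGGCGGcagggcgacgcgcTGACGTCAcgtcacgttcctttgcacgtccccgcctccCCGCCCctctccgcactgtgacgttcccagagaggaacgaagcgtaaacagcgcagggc
ALKBH5: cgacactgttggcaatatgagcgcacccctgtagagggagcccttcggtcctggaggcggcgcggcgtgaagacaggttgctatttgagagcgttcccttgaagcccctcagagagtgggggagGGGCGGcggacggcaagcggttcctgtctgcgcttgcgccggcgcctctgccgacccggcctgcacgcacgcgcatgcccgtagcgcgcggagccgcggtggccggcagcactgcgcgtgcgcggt
YTHDF1: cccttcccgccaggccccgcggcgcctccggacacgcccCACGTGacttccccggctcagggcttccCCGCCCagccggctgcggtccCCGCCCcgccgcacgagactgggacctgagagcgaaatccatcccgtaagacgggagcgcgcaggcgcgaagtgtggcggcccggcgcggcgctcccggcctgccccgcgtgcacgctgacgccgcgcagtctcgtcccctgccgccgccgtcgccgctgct
The METTL14 stretch held 1 CCAAT box and 1 ETS core, that of YTHDC1 held 2 GC boxes and 1 cyclic AMP response element, that of ALKBH5 held 1 GC box, and that of YTHDF1 held 2 GC boxes and 1 E-box. No motif was shared by METTL14 and YTHDC1, and the GC box was found for YTHDC1, ALKBH5 and YTHDF1. Among the members not shown, WTAP, RBM15 and YTHDF2 also held the GC box. The CCAAT box was in WTAP, ZC3H13, RBM15 and YTHDF2, the ETS core in METTL3 and ZC3H13, and the E-box in RBM15. FTO held none of the 6 motifs. A link between these motifs and the direction of change was not tested. Of 35116 promoters of the same length in the RefSeq table, 42.6% held the GC box, 32% the CCAAT box, 6.34% the E-box, 8.52% the ETS core, 1.65% the cyclic AMP response element and 10.7% the TATA box. The bases just after the starts used for YTHDC1 and ALKBH5 were not found in any GENCODE transcript of those genes. Those of METTL14 and YTHDF1 were found within one, and whether a transcript starts there was not tested. GC content was 57.2% for METTL14, 58.8% for YTHDC1, 70% for ALKBH5 and 77.6% for YTHDF1, against a median of 58% over all promoters. A motif match is a description of these letters, and binding was not measured.

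With drug, the changes of the members lay on both sides of 0, from −0.36 (YTHDF1) to 0.46 (METTL14) on the log2 scale over 8 comparisons with untreated cells. After TMM scaling, a rise or fall is relative to the other RNAs of a library. The amount of RNA per cell was not measured. METTL14 was called higher in 4 of the 8 comparisons and YTHDC1 in 5, YTHDF1 was called lower in 7 and ALKBH5 in 3, and WTAP was called in none. The 8 comparisons are not independent, since both drugs of a line and time share an untreated group. The share of all genes called as often in 1 direction was not counted. In MV4-11 at 8 h, 1 member was called higher and 1 lower with 8CA, against 4.58% and 5.77% of all genes tested, and 0 higher and 3 lower with 8AA, against 13.6% and 15.6%. In KG-1a at 8 h, no member was called with 8CA, where 0.7% of genes were called higher and 0.181% lower, 4 members had an unadjusted p under 0.05 and DESeq2 also called 0. With 8AA in KG-1a at 8 h, 4 were called higher and 2 lower, against 16.7% and 18%. At 24 h in MV4-11, 2 were called higher and 2 lower with 8CA, against 21.2% and 22.7%, and 1 higher and 2 lower with 8AA, against 13.9% and 15.3%. At 24 h in KG-1a, 3 were called higher and 1 lower with 8CA, against 23.4% and 24%, and 3 higher and 2 lower with 8AA, against 25.4% and 26.6%. The median change of the 10 members lay between −0.087 and 0.062, and that of all genes tested between −0.0047 and 0.013. No called change turned direction under any other scaling. Where libraries of 2 groups are said not to overlap, this is a description of 2 libraries per group and not a test. It also held for many changes that were not called, and the share of all genes for which it held was not counted.

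**Figure D2:**
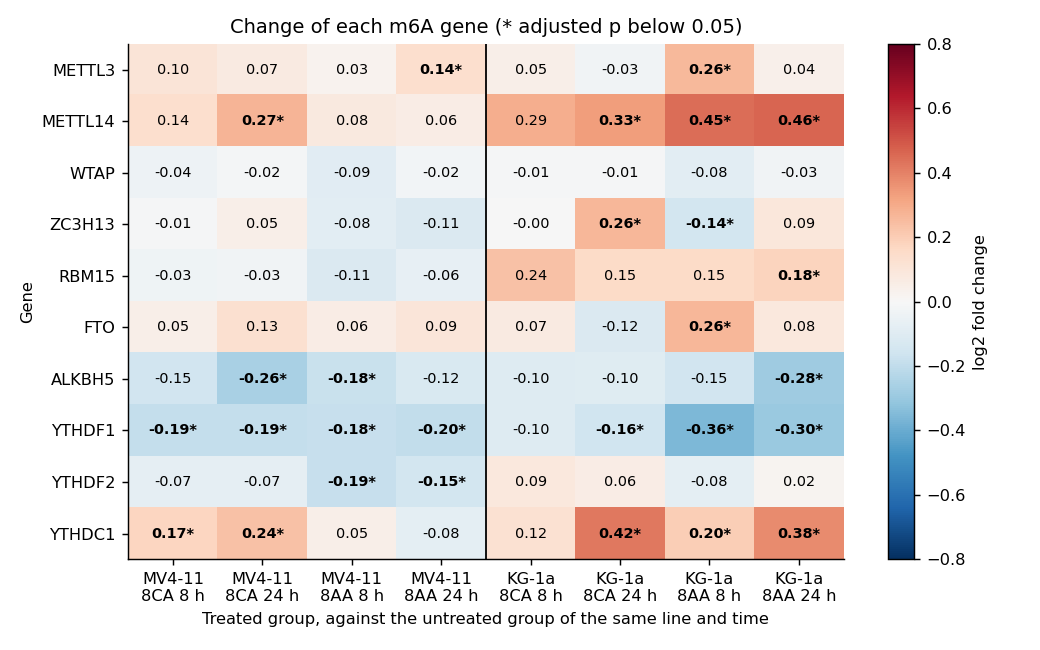
Log2 fold change (color and printed value) of each of the 10 genes, in rows, in each treated group against the untreated group of the same line and time, in columns; an asterisk marks adjusted p below 0.05 in edgeR's quasi-likelihood test. The METTL14 and YTHDC1 rows are mostly red, reaching 0.46 and 0.42, the ALKBH5 and YTHDF1 rows are blue throughout, and the WTAP row stays between −0.091 and −0.0087.

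METTL14, the RNA-binding subunit of the writer, rose with both drugs in KG-1a at 24 h, with 8AA in KG-1a at 8 h and with 8CA in MV4-11 at 24 h. In KG-1a it stood at 35.9 and 37.6 CPM untreated, 43.05 and 46.7 under 8CA and 51.6 and 47.98 under 8AA at 8 h (libraries A and B, TMM-normalized CPM), and at 39.6 and 37.4 CPM untreated, 46.8 and 50.1 under 8CA and 52.6 and 53.6 under 8AA at 24 h. Every treated library was above both untreated libraries of its time. At 24 h this was a rise of 38% with 8AA (log2 fold change 0.46, SE 0.065, adjusted p = 2.46e-05) and of 26% with 8CA (log2 fold change 0.33, SE 0.066, adjusted p = 0.000699). At 8 h it was 36.4% for 8AA (log2 fold change 0.45, SE 0.066, adjusted p = 9.53e-05). With 8CA at 8 h the value was 0.29 (adjusted p = 0.0571), which was not called. In MV4-11 it stood at 33.96 and 36.6 CPM untreated, 39.7 and 38.4 under 8CA and 35.8 and 40.01 under 8AA at 8 h, and at 36.9 and 35.3 CPM untreated, 43.8 and 44.5 under 8CA and 38.3 and 38.01 under 8AA at 24 h. Here only the 8CA libraries of 24 h gave a call (log2 fold change 0.27, SE 0.065, adjusted p = 0.00307), and with 8AA at 8 h the groups overlapped. The 4 calls of METTL14 were kept under every alternative tried, including with any 1 library left out.

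METTL3, the catalytic subunit, was called higher in 2 comparisons, both with 8AA. In KG-1a at 8 h it stood at 78.5 and 79.8 CPM untreated, 83.1 and 80.3 under 8CA and 93.7 and 94.2 under 8AA, a rise of 19.5% with 8AA (log2 fold change 0.26, SE 0.055, adjusted p = 0.00209), with no overlap. At 24 h it stood at 87.8 and 85.1 CPM untreated, 85.8 and 83.8 under 8CA and 93.7 and 83.8 under 8AA, where the 8AA libraries lay on either side of the untreated ones and the value was 0.040. The difference between these time points, −0.22, had an adjusted p of 0.067 and was not called. In MV4-11 it stood at 81.4 and 79.3 CPM untreated, 89.1 and 84.5 under 8CA and 82.6 and 84.9 under 8AA at 8 h and at 81.6 and 78.9 CPM untreated, 86.7 and 84.6 under 8CA and 90.8 and 88.2 under 8AA at 24 h, with every treated library above both untreated ones of its time. With 8AA at 24 h it was called (log2 fold change 0.14, SE 0.049, adjusted p = 0.0451), a call lost without any 1 of the 4 libraries concerned (adjusted p from 0.0794 to 0.29) and with DESeq2, its size factors or no filter. In these 2 comparisons TOX4, the gene that overlaps it, had 0.058 (adjusted p = 0.389) and 0.11 (0.0856) and was not called. TOX4 was called higher in 4 others, in MV4-11 with 8AA at 8 h (0.15, adjusted p = 0.0227) and 8CA at 24 h (0.25, 0.000492) and in KG-1a at 24 h with 8CA (0.37, 1.85e-05) and 8AA (0.38, 8.31e-06), where METTL3 was not called. The part of shared reads in the METTL3 values was not tested.

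Of the accessory writers, ZC3H13 was called in 2 KG-1a comparisons, RBM15 in 1, and WTAP, the subunit that keeps METTL3 and METTL14 in nuclear speckles, was not called. ZC3H13, a zinc finger protein that keeps the complex in the nucleus, stood in KG-1a at 155.9 and 153.98 CPM untreated, 154.2 and 154.7 under 8CA and 139.8 and 138.5 under 8AA at 8 h and at 145.03 and 143.04 CPM untreated, 172.8 and 172.5 under 8CA and 155.7 and 151.2 under 8AA at 24 h. With 8CA at 24 h it rose by 20% (log2 fold change 0.26, SE 0.042, adjusted p = 0.000105), and both 8CA libraries were above all other KG-1a libraries. With 8AA it fell at 8 h (log2 fold change −0.14, SE 0.042, adjusted p = 0.0144) and had 0.093 at 24 h (adjusted p = 0.0773). The 8 h fall was lost without untreated A (adjusted p = 0.0848), 8AA A (0.0711) or 8AA B (0.092). In MV4-11 ZC3H13 stood at 196.4 and 185.3 CPM untreated, 195.3 and 186.1 under 8CA and 184.4 and 183.3 under 8AA at 8 h and at 180.3 and 183.4 CPM untreated, 193.4 and 188.2 under 8CA and 163.8 and 176.95 under 8AA at 24 h. Both 8AA libraries were below the untreated ones at each time, the 8CA libraries overlapped them at 8 h and were above them at 24 h, and no change was called.

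RBM15, an RNA-binding protein that guides the complex to its targets, had positive values in all 4 KG-1a comparisons and negative ones in all 4 MV4-11 comparisons, and 1 of the 8 was called. In KG-1a it stood at 53.7 and 48.8 CPM untreated, 59.6 and 61.03 under 8CA and 54.4 and 58.7 under 8AA at 8 h and at 52.3 and 54.6 CPM untreated, 58.8 and 59.9 under 8CA and 58.4 and 62.4 under 8AA at 24 h. Every treated KG-1a library was above both untreated ones of its time. The call was that of 8AA at 24 h (log2 fold change 0.18, SE 0.063, adjusted p = 0.0288). It was lost without untreated A (adjusted p = 0.22), untreated B (0.0582) or 8AA B (0.108), and with DESeq2. In MV4-11 RBM15 stood at 50.1 and 58.8 CPM untreated, 51.5 and 55.8 under 8CA and 51.9 and 51.00 under 8AA at 8 h and at 57.8 and 58.1 CPM untreated, 56.97 and 58.5 under 8CA and 57.9 and 54.4 under 8AA at 24 h, with overlap between treated and untreated libraries in all 4 comparisons. RBM15 was not called in any of the 4 tests between the lines (adjusted p from 0.106 to 0.35). WTAP stood between 108.98 and 130.98 CPM in all 24 libraries, its changes lay between −0.091 and −0.0087, and its 95% intervals reached from −0.204 to 0.103 at most.

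Of the erasers, ALKBH5 had values below 0 in all 8 comparisons, and 3 of these were called. In MV4-11 it stood at 154.00 and 155.1 CPM untreated, 135.2 and 145.1 under 8CA and 137.6 and 141.1 under 8AA at 8 h and at 139.9 and 147.8 CPM untreated, 119.8 and 124.03 under 8CA and 131.4 and 136.4 under 8AA at 24 h, and every treated library was below both untreated ones. It fell with 8AA at 8 h (log2 fold change −0.18, SE 0.048, adjusted p = 0.011) and with 8CA at 24 h (log2 fold change −0.26, SE 0.048, adjusted p = 0.000478). With 8CA at 8 h and 8AA at 24 h it missed the threshold (adjusted p = 0.0576 and 0.067). In KG-1a it stood at 81.4 and 74.3 CPM untreated, 71.9 and 72.8 under 8CA and 71.4 and 67.7 under 8AA at 8 h and at 70.4 and 68.3 CPM untreated, 65.4 and 64.2 under 8CA and 59.5 and 54.4 under 8AA at 24 h. It fell with 8AA at 24 h (log2 fold change −0.28, SE 0.061, adjusted p = 0.00118), while with 8CA at that time the value was −0.096 (adjusted p = 0.212). The 8 h call in MV4-11 was lost without 8AA A (adjusted p = 0.0511), and both 24 h calls were kept under every alternative tried.

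FTO, the eraser that also acts on the methylated cap-adjacent base, was called once, higher with 8AA in KG-1a at 8 h. In KG-1a it stood at 57.1 and 57.7 CPM untreated, 60.2 and 60.2 under 8CA and 71.5 and 65.3 under 8AA at 8 h, a rise of 19.99% (log2 fold change 0.26, SE 0.061, adjusted p = 0.00354), and at 61.7 and 57.8 CPM untreated, 56.6 and 53.3 under 8CA and 65.4 and 61.04 under 8AA at 24 h. At 24 h the 8AA and untreated libraries overlapped, and both 8CA libraries were below both untreated ones (−0.12, adjusted p = 0.134, not called). The call was lost without 8AA A (adjusted p = 0.0654). In MV4-11 FTO lay between 51.3 and 59.3 CPM in all 12 libraries, with values from 0.050 to 0.13.

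Among the readers, YTHDF1, a cytoplasmic reader linked to translation, fell in 7 of 8 comparisons and YTHDC1, the nuclear reader, rose in 5. In KG-1a YTHDF1 stood at 164.98 and 162.1 CPM untreated, 155.5 and 149.2 under 8CA and 128.9 and 124.1 under 8AA at 8 h and at 151.9 and 158.1 CPM untreated, 140.5 and 137.1 under 8CA and 128.5 and 123.4 under 8AA at 24 h. All treated libraries were below the untreated ones and the 8AA libraries were below those of 8CA at both times. YTHDF1 fell with 8AA at 8 h (log2 fold change −0.36, SE 0.047, adjusted p = 2.97e-05) and at 24 h (log2 fold change −0.30, SE 0.047, adjusted p = 7.07e-05), with 8CA at 24 h (log2 fold change −0.16, SE 0.047, adjusted p = 0.0117), and had −0.10 with 8CA at 8 h (adjusted p = 0.374). In MV4-11 it stood at 99.6 and 93.9 CPM untreated, 86.1 and 84.7 under 8CA and 90.6 and 83.4 under 8AA at 8 h and at 97.4 and 89.4 CPM untreated, 82.9 and 82.7 under 8CA and 81.2 and 84.2 under 8AA at 24 h, again with no overlap between treated and untreated libraries. The 4 changes there were close to each other, from −0.20 to −0.18, with adjusted p from 0.0126 to 0.048, and all 4 were called. Both 8AA calls in KG-1a were kept under every alternative tried, and the other 5 were not. With 8CA the call was lost in MV4-11 at 8 h without any 1 of the 4 libraries (adjusted p from 0.0583 to 0.258), in MV4-11 at 24 h without untreated A (0.178), 8CA A (0.0687) or 8CA B (0.0646), and in KG-1a at 24 h without untreated B (0.107) or 8CA B (0.0908). With 8AA in MV4-11 it was lost at 8 h without untreated A (0.183) or 8AA B (0.243) and at 24 h without untreated A (0.183) or 8AA A (0.106), and the 4 MV4-11 calls were also lost when libraries were scaled by total count alone, those of 8 h also with upper-quartile scaling and that of 8CA at 8 h with DESeq2.

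YTHDC1, which is known for splicing and nuclear export of methylated RNA, reached the highest counts of the members. In KG-1a it stood at 138.99 and 145.4 CPM untreated, 155.97 and 153.4 under 8CA and 162.5 and 161.3 under 8AA at 8 h and at 150.4 and 141.4 CPM untreated, 196.8 and 194.4 under 8CA and 193.5 and 186.3 under 8AA at 24 h. All treated libraries were above the untreated ones, and the 24 h libraries of both drugs were above every other library of the series. The rises at 24 h were 34.2% with 8CA (log2 fold change 0.42, SE 0.046, adjusted p = 2.61e-06) and 30.2% with 8AA (log2 fold change 0.38, SE 0.046, adjusted p = 5.3e-06), and 8AA gave 14.7% at 8 h (log2 fold change 0.20, SE 0.046, adjusted p = 0.00384). In MV4-11 it stood at 120.7 and 117.8 CPM untreated, 137.7 and 133.3 under 8CA and 126.2 and 125.3 under 8AA at 8 h and at 120.2 and 119.5 CPM untreated, 142.8 and 143.7 under 8CA and 110.6 and 119.6 under 8AA at 24 h, where the 8AA libraries overlapped the untreated ones and the 8CA libraries stood above them. It rose there with 8CA, at 8 h (log2 fold change 0.17, SE 0.047, adjusted p = 0.0279) and at 24 h (log2 fold change 0.24, SE 0.047, adjusted p = 0.000722), while with 8AA the value was 0.047 at 8 h and −0.079 at 24 h (adjusted p = 0.488 and 0.227). The 8 h call with 8CA in MV4-11 was lost without any 1 of the 4 libraries (adjusted p from 0.0726 to 0.18) and with DESeq2, and the other 4 calls were kept under every alternative tried.

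YTHDF2, the decay-linked reader, fell with 8AA in MV4-11 and was not called in KG-1a. In MV4-11 it stood at 144.98 and 138.9 CPM untreated, 135.7 and 136.3 under 8CA and 127.97 and 126.7 under 8AA at 8 h and at 134.8 and 133.2 CPM untreated, 127.5 and 130.8 under 8CA and 121.7 and 123.3 under 8AA at 24 h, with both 8AA libraries below all untreated and 8CA libraries of their time. The changes with 8AA were −0.19 at 8 h (adjusted p = 0.00443) and −0.15 at 24 h (0.0174). In KG-1a it stood at 123.2 and 124.3 CPM untreated, 132.4 and 130.3 under 8CA and 118.00 and 114.4 under 8AA at 8 h and at 111.3 and 115.4 CPM untreated, 118.4 and 117.6 under 8CA and 114.9 and 115.4 under 8AA at 24 h, with 8CA above and 8AA below the untreated libraries at 8 h and 8AA overlapping them at 24 h. The MV4-11 call at 8 h was lost without untreated A (adjusted p = 0.0518) and that at 24 h without any 1 of the 4 libraries (adjusted p from 0.0522 to 0.083), with total counts only and with upper-quartile scaling.

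**Figure D3:**
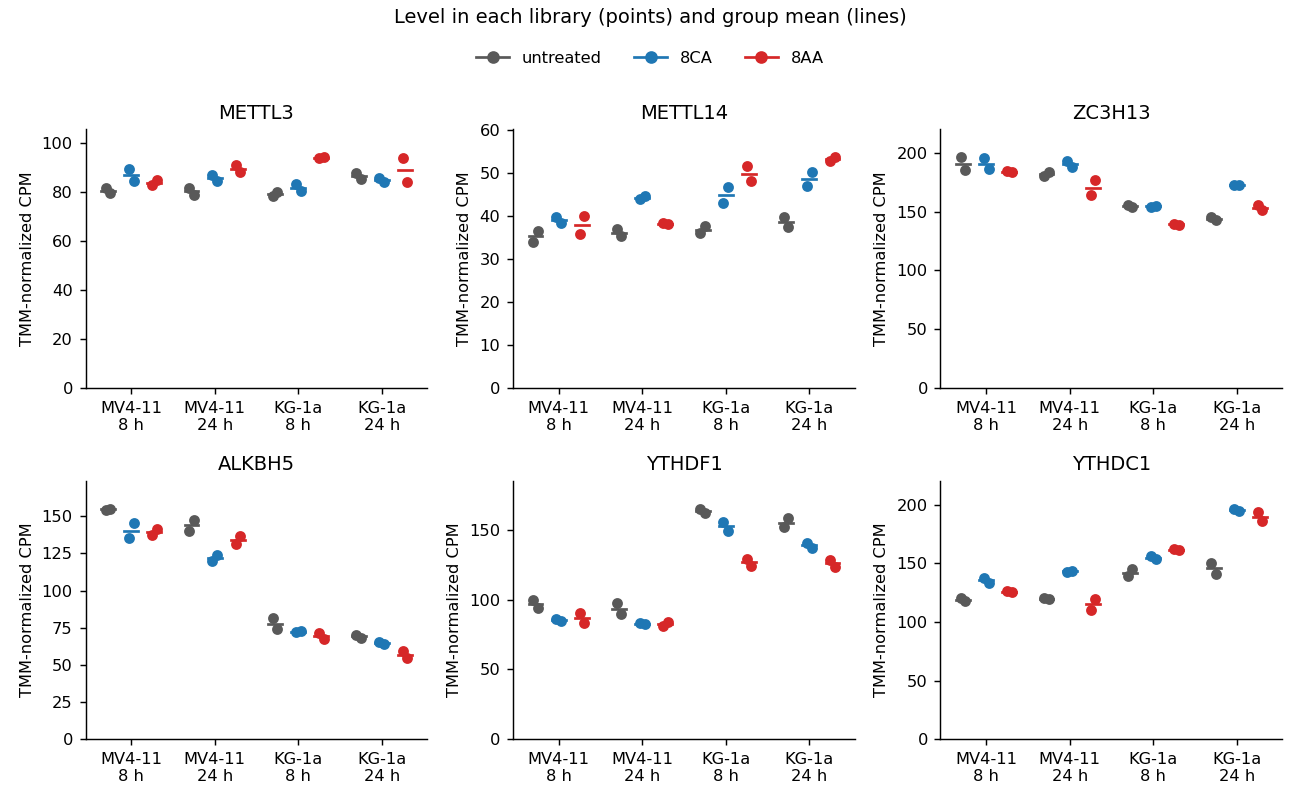
TMM-normalized CPM (y axis, from 0) of METTL3, METTL14, ZC3H13, ALKBH5, YTHDF1 and YTHDC1 in all 24 libraries, by line and time on the x axis. Points are libraries, lines are group means, and colors are untreated (grey), 8CA (blue) and 8AA (red). METTL14 and YTHDC1 are highest in drug-treated KG-1a, YTHDF1 falls from 164.98 and 162.1 to 128.9 and 124.1 CPM with 8AA in KG-1a at 8 h, and ALKBH5 is lower in KG-1a than in MV4-11 in every library.

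Because 8CA and 8AA were given at the same dose and times, they were compared directly, in 40 pairs of values (10 members, 2 lines, 2 times). YTHDC1 in MV4-11 at 24 h had the largest difference, being lower with 8AA than with 8CA (log2 fold change −0.32, SE 0.047, adjusted p = 0.00023, 95% interval −0.42 to −0.22). In MV4-11 at 24 h METTL14 (−0.21, adjusted p = 0.0297) and ZC3H13 (−0.16, 0.0258) were also lower with 8AA, so that 3 of 10 were called, against 21.2% of all genes tested. In KG-1a at 8 h, 5 of 10 were called, against 30.4% of genes. METTL3 (0.21, adjusted p = 0.0091) and FTO (0.19, 0.0246) were higher with 8AA, and YTHDF1 (−0.26, 0.00068), YTHDF2 (−0.17, 0.00919) and ZC3H13 (−0.14, 0.0191) were lower. In KG-1a at 24 h, 4 of 10 were called, against 42% of genes. FTO was higher with 8AA (0.20, 0.015), and ALKBH5 (−0.19, 0.0228), ZC3H13 (−0.17, 0.00383) and YTHDF1 (−0.14, 0.0246) were lower.

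In MV4-11 at 8 h, 0 of 10 members were called between the drugs, against 6.66% of genes, with 2 at an unadjusted p under 0.05 and 0 called by DESeq2. The 95% intervals there lay within −0.23 and 0.13 on the log2 scale, which does not show that the drugs act alike. METTL14 in KG-1a was not called between the drugs, with intervals of 0.023 to 0.30 at 8 h (adjusted p = 0.0738) and −0.0036 to 0.27 at 24 h (0.11), and neither was YTHDC1, with −0.023 to 0.17 and −0.14 to 0.053. Of the 12 calls, those of YTHDC1 in MV4-11 at 24 h, YTHDF1 in KG-1a at 8 h and ZC3H13 in KG-1a at 24 h were kept under every alternative. The other 9 were each lost without 1 library, among them METTL14 in MV4-11 at 24 h (adjusted p from 0.0824 to 0.126) and ZC3H13 in KG-1a at 8 h (0.0887 to 0.11), which were lost without any 1 of the 4 libraries. The same held without 8CA A, 8CA B or 8AA A for ZC3H13 in MV4-11 at 24 h (0.0513 to 0.191) and FTO in KG-1a at 8 h (0.109 to 0.25), and without 8CA A, 8CA B or 8AA B for ALKBH5 (0.0714 to 0.117) and YTHDF1 (0.056 to 0.151) in KG-1a at 24 h. It also held without 8CA B or 8AA B for METTL3 in KG-1a at 8 h (0.0612 to 0.0869), without 8CA A or 8AA B for YTHDF2 in KG-1a at 8 h (0.0791 to 0.0931), and without 8CA B or 8AA A for FTO in KG-1a at 24 h (0.0725 to 0.142).

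**Figure D4:**
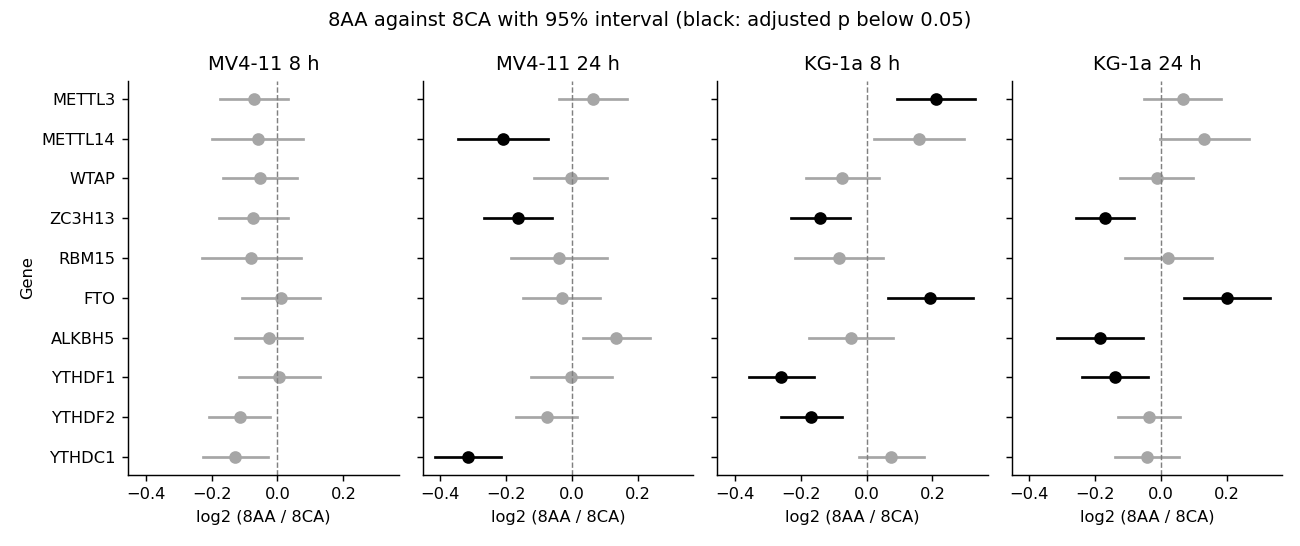
Difference between the drugs for each of the 10 genes, as log2 of 8AA over 8CA (x axis) with its 95% interval, in a panel for each line and time. Black marks adjusted p below 0.05; the MV4-11 panel of 8 h holds no black point, and YTHDC1 in MV4-11 at 24 h lies at −0.32.

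The change of a member at 24 h was set against its change at 8 h, each from its own untreated group. In KG-1a with 8CA, ZC3H13 (0.27, adjusted p = 0.00429) and YTHDC1 (0.30, 0.00366) had higher changes at 24 h than at 8 h, 2 of 10 members against 23.9% of genes called. In KG-1a with 8AA, ZC3H13 was called (0.24, 0.0118), 1 of 10 against 18.3%, its change going from −0.14 at 8 h to 0.093 at 24 h. That call was lost without untreated 8 h A, 8AA 8 h B, or either untreated 24 h library (adjusted p from 0.0525 to 0.0577). In MV4-11, 0 of 10 were called with 8CA, against 16.3%, and 0 with 8AA, against 4.63%, and 0 had an unadjusted p under 0.05 or were called by DESeq2 with either drug.

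The change of a member in MV4-11 was set against its change in KG-1a in a fit of all 24 libraries. At 24 h with 8AA, METTL14 (−0.38, adjusted p = 0.00399), YTHDC1 (−0.44, 2.04e-05) and ZC3H13 (−0.19, 0.035) had lower values in MV4-11 than in KG-1a, 3 of 10 members against 22.3% of genes called. At 8 h with 8AA, METTL14 had a lower value in MV4-11 (−0.33, 0.0234), 1 of 10 against 11.1%. With 8CA at 24 h, 2 of 10 were called, against 11.2%, ZC3H13 being lower (−0.19, 0.049) and FTO higher (0.27, 0.0404) in MV4-11. With 8CA at 8 h, 0 of 10 were called, against 1.15%, 2 had an unadjusted p under 0.05 and DESeq2 called 0. The METTL14 and YTHDC1 differences with 8AA at 24 h were kept under every alternative tried. The other 4 were each lost without single libraries, with adjusted p from 0.0592 to 0.193 for ZC3H13 and 0.091 to 0.121 for METTL14 with 8AA, and from 0.0756 to 0.167 for ZC3H13, without any 1 of 8 libraries, and 0.0667 to 0.19 for FTO with 8CA. ALKBH5 and YTHDF1, although called in 1 line and not in the other in some comparisons, gave no call in any of the 4 tests between lines, where their smallest adjusted p were 0.102 and 0.0572.

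Another 19 genes of the m6A pathway, 8 other methyltransferases or writer subunits and 11 other readers, were counted in the same fits, where 18 were tested in each line. At 8 h, 0 were called with 8CA in either line, with 6 in MV4-11 and 0 in KG-1a at an unadjusted p under 0.05, where 4.58% of all MV4-11 genes were called higher and 5.77% lower, and in KG-1a 0.7% and 0.181%. With 8AA at 8 h, 0 rose and 5 fell in each line, against 13.6% of all genes higher and 15.6% lower in MV4-11 and 16.7% and 18% in KG-1a. At 24 h in MV4-11, 3 rose and 5 fell with 8CA, against 21.2% and 22.7% of all genes, and 0 rose and 7 fell with 8AA, against 13.9% and 15.3%. At 24 h in KG-1a, 4 rose and 7 fell with 8CA, against 23.4% and 24%, and 1 rose and 7 fell with 8AA, against 25.4% and 26.6%. No test of the list against all genes was made. The alternatives tried for the members were not read for these genes, METTL16 among them. HNRNPA2B1, a nuclear RNA-binding protein also described as an m6A reader, fell by 0.61 on the log2 scale in MV4-11 with 8CA (adjusted p = 1.38e-07) and by 0.45 with 8AA (8.8e-06), the change farthest from 0 among the called genes of the list in each. It fell in KG-1a at 24 h as well, by 0.59 with 8CA (adjusted p = 4.27e-08) and by 0.51 with 8AA (1.47e-07). The called gene of the list farthest from 0 in KG-1a was IGF2BP3, a reader that stabilizes its targets, with 8CA (log2 fold change 0.66, SE 0.126, adjusted p = 0.000482), and LRPPRC, a mitochondrial and nuclear RNA-binding protein, with 8AA (−0.87, 3.99e-10). METTL16, the methyltransferase of the MAT2A hairpins and U6 snRNA, fell with 8AA in MV4-11 at 8 h (−0.29, adjusted p = 0.000683) and at 24 h (−0.17, 0.0205) and in KG-1a at 24 h (−0.31, 0.000307). With 8AA in KG-1a at 8 h its value was −0.022 (adjusted p = 0.8). With 8CA METTL16 had 0.011 and −0.086 in MV4-11 and 0.078 and 0.12 in KG-1a at 8 h and 24 h, and none was called. Between the drugs METTL16 was lower with 8AA in MV4-11 at 8 h (−0.30, adjusted p = 0.00281) and in KG-1a at 24 h (−0.43, 2.11e-05), with −0.088 (0.254) in MV4-11 at 24 h and −0.099 (0.189) in KG-1a at 8 h. Its change at 24 h less that at 8 h was −0.097 for 8CA and 0.12 for 8AA in MV4-11, and 0.045 and −0.29 in KG-1a (adjusted p = 0.407, 0.409, 0.72 and 0.0203). Its change in MV4-11 less that in KG-1a was −0.055 and −0.19 for 8CA and −0.23 and 0.16 for 8AA at 8 h and 24 h (adjusted p = 0.88, 0.13, 0.0567 and 0.164), and its level without drug was higher in MV4-11 (0.23, 7.87e-06). In KG-1a with 8AA at 24 h, METTL16 fell while METTL14 rose (0.46) and METTL3 was at 0.040.

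Over the 24 libraries, each gene centred within its line on log2 CPM, the genes most like METTL14 among 14054 were TXNIP (Pearson r 0.904), C12orf76 (0.903) and ZNF776 (0.900), and those most like METTL3 were GNPTG (0.824), GMPR2 (0.814) and SLC25A29 (0.801). TXNIP, a thioredoxin-binding protein, was called higher in all 8 comparisons, from 0.51 to 1.69, while METTL14 ranged from 0.062 to 0.46. Among the members themselves, METTL14 went with YTHDC1 (r 0.796), ALKBH5 with YTHDF1 (0.725) and METTL3 with FTO (0.685), and METTL14 ran opposite to YTHDF1 (−0.866). METTL3 and METTL14, which form a heterodimer, had an r of 0.545. These are descriptions over libraries that share lines, drugs and untreated groups, and carry no test.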

How the data were processed

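RNA sequencing of untreated and drug-treated MV4-11 and KG-1a cells was analysed from the deposited raw counts, whole numbers of reads per gene and library that the authors made and did not normalize. The submitters' processing notes name Trimmomatic, STAR 2.6.0, HTSeq 0.11.1, edgeR and the builds hg19 and hg38, with no role. The positions in the table reach 249213345 on chromosome 1, beyond the last RefSeq gene of GRCh38.p14 (248937099), and 24 of 21956 genes matched by symbol had the same start and end, so they were read as hg19. Strand use in counting is not given in the sources used here. All 24 count columns were matched to a library by title, with 0 unmapped. The hours of the untreated libraries come from the titles alone.

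Genes were filtered with filterByExpr (minimum count 10), leaving 12800 in MV4-11, 12711 in KG-1a and 14055 in all libraries, and all 10 members were kept in each. After TMM scaling, edgeR 4.0.16 (R 4.3.3, limma 3.58.1) quasi-likelihood models were fitted to the 12 libraries of a line, 6 groups with a shared spread, or to all 24 for differences between lines. Tests were two-sided, Benjamini-Hochberg adjusted over the genes of each fit, and called below 0.05. The SE is the log2 fold change divided by the square root of F, and intervals are at 95%. The procedure was run on simulated data with planted changes larger than any change of a member with drug. Recovery of changes as small as those reported was not tested. Alternatives were DESeq2 size factors, upper-quartile scaling or total counts only, no filter, the replicate letter as a block, DESeq2 1.42.0, and leaving out each library. They were read for the 10 members only. Precision is set by the 2 libraries per group and the count depth. All 10 members are named, METTL16 in each comparison, and of the other pathway genes the called gene of each 24 h comparison with the largest absolute log2 fold change. Likeness was measured for METTL3 and METTL14, on log2 CPM with a prior count of 2. The members and gene lists were chosen with earlier results of these data known.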

Additional observations from a re-analysis of the deposited data

Results flagged for a closer look

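Tests of a difference between times or lines passed the threshold for 9 values, given as log2 differences by the quasi-likelihood test of edgeR, Benjamini-Hochberg adjusted over the genes of each fit. In KG-1a, the change with 8CA was higher at 24 h than at 8 h for ZC3H13, by 0.27 (changes of −0.0038 at 8 h and 0.26 at 24 h), and for YTHDC1, by 0.30 (0.12 and 0.42). Both were kept with any 1 library left out. With 8AA in KG-1a, ZC3H13 differed between times by 0.24, a call lost without untreated 8 h A, 8AA 8 h B, untreated 24 h A or untreated 24 h B (adjusted p from 0.0525 to 0.0577).

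Between lines, the 8AA change at 24 h was lower in MV4-11 than in KG-1a for METTL14 (-0.38) and YTHDC1 (-0.44), which were kept with any 1 of 8 libraries left out, and for ZC3H13 (-0.19), which was lost without MV4-11 untreated A, untreated B or 8AA A or KG-1a untreated A, untreated B or 8AA A (adjusted p from 0.0592 to 0.193). At 8 h METTL14 differed with 8AA by -0.33, lost without MV4-11 untreated B or 8AA A or KG-1a untreated A or 8AA A (adjusted p from 0.091 to 0.121). With 8CA at 24 h, ZC3H13 (-0.19) was lost without any 1 of 8 libraries (adjusted p from 0.0756 to 0.167), and FTO (0.27) was lost without MV4-11 untreated B, 8CA A or 8CA B or KG-1a untreated A, 8CA A or 8CA B (adjusted p from 0.0667 to 0.19). The causes of these differences were not tested.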

How the results depend on the processing

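No change called under either setting turned direction under any alternative. Of the 55 calls over all comparisons 26 were kept under every alternative, and of the 27 against untreated cells 14 were. The number of members called moved by more than 1.5 times as follows. In MV4-11 with 8CA at 8 h (2 called) it was 1 with total counts only or upper-quartile scaling and 0 with DESeq2, and in KG-1a with 8CA at 8 h (0) it was 1 with total counts only, no filter or the replicate block. With total counts only, MV4-11 8AA at 24 h (3) gave 1, higher, and KG-1a 8AA at 24 h (5) gave 9, 7 higher and 2 lower, against 3 and 2. For MV4-11 8CA at 24 h that scaling left the number as it was but gave 3 higher and 1 lower, against 2 and 2. The time difference of 8AA in KG-1a (1) gave 2 with total counts only, upper-quartile scaling or the block. Between lines, 8AA at 8 h (1) gave 2 with total counts only or the block and 3 with no filter, 8AA at 24 h (3) gave 5 with total counts only, upper-quartile scaling or no filter, and 8CA at 24 h (2) gave 1 with upper-quartile scaling, the block or DESeq2 and 0 with no filter. With 1 library left out, the counts lay between 0 and 1 for MV4-11 8CA at 8 h, 2 and 3 for MV4-11 8AA at 8 h, 4 and 7 for KG-1a 8AA at 8 h, 3 and 4 for 8CA at 24 h in each line, 0 and 2 for MV4-11 8AA at 24 h and 4 and 5 for KG-1a 8AA at 24 h. Between the drugs they lay between 2 and 3 in KG-1a at 8 h, 1 and 2 in MV4-11 at 24 h and 1 and 3 in KG-1a at 24 h. They lay between 0 and 3 for the time difference of 8AA in KG-1a, and between lines 0 and 2 for 8AA at 8 h, 0 and 1 for 8CA at 24 h, 2 and 4 for 8AA at 24 h, and 6 and 8 untreated. Total counts only moved the median of all genes to 0.11 in KG-1a 8AA at 24 h and to −0.10 between the untreated lines, and the lower share of all called genes from 51.2% to 35.5% in KG-1a 8AA at 24 h, from 51.9% to 41.8% in KG-1a 8AA at 8 h, and in MV4-11 from 55.8% to 38.3% (8CA 8 h), 53.4% to 38.8% (8AA 8 h), 51.8% to 41.1% (8CA 24 h) and 52.4% to 36.2% (8AA 24 h). Upper-quartile scaling moved that share to 41.6% (MV4-11 8CA 8 h), 38.1% (MV4-11 8AA 8 h), 40.1% (MV4-11 8AA 24 h) and 38.8% (KG-1a 8AA 24 h). It rose to 68.7% with DESeq2 in MV4-11 8CA at 8 h, and in KG-1a 8CA at 8 h from 20.5% to 33.5% with no filter and to 31.2% with the block. With total counts only, 9 untreated levels of members in a line moved by at least their SD over the 4 libraries, and 11 moved by less. The causes of these moves were not tested. The letters A and B were not treated as pairs: same-letter deviations correlated between −0.117 and 0.159 in MV4-11 (6 of 15 pairs of groups above 0.1) and between −0.085 and 0.161 in KG-1a (2 of 15), and with the replicate block 1 member call was lost and 9 were gained over all comparisons.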
